A study of Mus musculus with 30 samples.

Results

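The genes described here are the regulators of apoptosis and the tumour necrosis factor (TNF) family on a spotted oligonucleotide array, taken as every probe whose single gene symbol belongs to the Bcl-2, BNIP, caspase, inhibitor of apoptosis (IAP), TNF or TRAF families. The rule took 19 probes for 19 genes out of 6267 probes, 3997 of which carry 1 gene symbol. RNA came from whole mammary glands of E2F3 +/- mice and WT mice, 3 mice per genotype and time, which made 10 groups and 30 arrays. The times were lactation, taken as day 0 of involution, and involution days 1, 2, 3 and 4. The transcription factor E2F3 acts on genes that take cells into the cell cycle, and +/- denotes heterozygous animals. The sources used here give no strain, no age and no account of how the allele was made. All glands were compared with a mouse reference RNA on 2-colour arrays, so each value is a ratio of gland over reference, divided here by the array's median. That direction is likely from the dyes but is not stated with the values. A ratio ranks arrays for 1 probe and does not rank genes against each other.

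Involution is the regression of the milk-producing gland after suckling ends, in which secretory cells die and are cleared. In the mitochondrial branch of apoptosis, Bak and Bax open the outer membrane, BH3 proteins such as Bad lower the threshold for this, and released Diablo (Smac) frees caspases from the IAP proteins. In the TNF branch, ligand binding to Tnfrsf1a recruits TRAF adaptors and IAP ubiquitin ligases, which steer the cell towards NF-kB signalling and survival or towards caspase activation. TNF signals also run between macrophages and other cells of the gland.

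By role the members were 1 ligand (*Tnf*, chromosome 17), 3 receptors (*Tnfrsf1a*, chromosome 6, *Tnfrsf1b*, chromosome 4, and *Tnfrsf10b*, chromosome 14), 3 adaptor-like proteins (*Traf3ip2*, chromosome 10, *Traf4*, chromosome 11, and *Traf7*, chromosome 17) and 3 TNF-induced proteins (*Tnfaip2*, chromosome 12, *Tnfaip8*, chromosome 18, and *Tnfaip8l2*, chromosome 3). There were also 2 IAP genes (*Birc2* and *Birc3*, both on chromosome 9), 2 genes of the caspase pathway (*Casp2*, chromosome 6, and *Diablo*, chromosome 5) and 5 of the pro-apoptotic Bcl-2 and BNIP proteins (*Bad*, chromosome 19, *Bak1*, chromosome 17, *Bnip2*, chromosome 9, *Bnip3*, chromosome 7, and *Bnip3l*, chromosome 14). No probe was named for *Fas*, *Fadd*, *Cflar*, *Bcl2*, *Bax*, any *Ripk* or any *Tnfsf* gene (0 probes each). A test needed 2 or more measured arrays of the 3 in each group. That held for 16 members, 10 of them with a value on all 30 arrays. *Tnf*, *Tnfrsf10b* and *Tnfaip8l2* had values on 8, 26 and 27 arrays and are given as values without the test.

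The deposited ratios had array medians from 1.00 to 1.27, and 7.64% of all values were listed at 0 or 0.01 and taken as missing. The targeted gene could not be checked, since 0 probes are named *E2f3*. The milk secretory list (6 probes) summed to 13470 to 16070 on the E2F3 +/- lactation arrays and 10070 to 14400 on the WT lactation arrays. At day 1 the sums were 6846 to 13650 in E2F3 +/- glands and 5405 to 9679 in WT glands. At day 4 they were 1440 to 6278 and 2116 to 3358. Lactation arrays thus had the higher sums within each genotype, with an overlap at E2F3 +/- day 1. Correlations were taken over the 3968 probes with a value on all 30 arrays, each as log2 ratio minus the probe's mean over arrays. By these, 8 of the 30 arrays correlated better with another group than with the rest of their own. The gap was widest on 3 of them. E2F3 +/- day 3 replicate 1 correlated at -0.109 with the rest of its own group and at 0.433 with WT day 3, and E2F3 +/- day 4 replicate 3 at -0.036 with its own group and at 0.376 with WT day 3. WT day 2 replicate 3 correlated at 0.495 with its own group and at 0.867 with E2F3 +/- day 4. Among the other 5, E2F3 +/- day 3 replicate 2 had the widest gap (0.470 with its own group, 0.800 with E2F3 +/- day 4), a gap of 0.330 against 0.372 for WT day 2 replicate 3. E2F3 +/- day 3 replicate 3 (0.652) and E2F3 +/- day 4 replicate 2 (0.755) also correlated better with each other's group (0.749 and 0.787), E2F3 +/- day 2 replicate 3 (0.465) with E2F3 +/- day 1 (0.560), and WT day 4 replicate 2 (0.454) with WT day 2 (0.560). Calls that rest on the first 3 arrays, which below are said to stand apart, are given with and without them. That choice of 3 of the 8 was made after the data were seen, and leaving out arrays that disagree with their group narrows the spread by construction. The other 5 were left out only singly, since all 8 together would leave no E2F3 +/- day 3 array. In whole glands, a lower ratio through fewer cells of a type and through less RNA per cell cannot be told apart.

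Against lactation, 15 of the 16 tested members passed limma's test at 1 or more days, and *Bad* did not. Passing meant a p under 0.05 after Benjamini-Hochberg adjustment over the 5010 tested probes. The share of all probes that passed at 1 or more days was not counted, so 15 of 16 is not a result about the members. Differences below are means of log2 ratios ± the standard error. Among E2F3 +/- glands 4 members passed at day 1, where 43.6% of all probes passed, 4 at day 2 (45.9%), 9 at day 3 (66.8%) and 11 at day 4 (70.5%). In WT glands day 1 had 5 (36.7%), day 2 had 6 (65.2%), day 3 had 2 (39%) and day 4 had 5 (56.4%). The members' own shares were 25.0%, 25.0%, 56.2% and 68.8% in E2F3 +/- glands and 31.2%, 37.5%, 12.5% and 31.2% in WT glands. In each of these 8 comparisons the members' share lay below that of all probes. At day 4 the median log2 difference was 0.05 over the members and -0.01 over all probes in E2F3 +/- glands, and 0.27 over the members and 0.06 over all probes in WT glands.

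By direction, the E2F3 +/- members were 2 higher and 2 lower at day 1 (23.2% and 20.3% of all probes), and 2 and 2 at day 2 (23.7% and 22.2%). They were 6 higher and 3 lower at day 3 (34.2% and 32.7%), and 6 and 5 at day 4 (33.2% and 37.4%). The WT members were 2 higher and 3 lower at day 1 (18.5% and 18.2%), and 3 and 3 at day 2 (31.8% and 33.4%). They were 1 higher and 1 lower at day 3 (17.4% and 21.6%), and 3 and 2 at day 4 (25.4% and 31%). The split shifted with the scaling. With the ratios as deposited it was 3 and 2, 2 and 2, 6 and 2, and 7 and 4 over the 4 days in E2F3 +/- glands, and 2 and 1, 3 and 2, 3 and 1, and 5 and 2 in WT glands. With quantile normalization it was 3 and 3, 1 and 3, 5 and 2, and 7 and 4 in E2F3 +/- glands, and 2 and 4, 3 and 2, 4 and 1, and 4 and 3 in WT glands. Of all probes called, the higher ones made up 47% to 53.3% in E2F3 +/- glands and 44.7% to 50.4% in WT glands over the 4 days. As deposited they made up 54.5% to 60.4% in E2F3 +/- glands and 53.7% to 60.3% in WT glands, and with quantile normalization 49.8% to 51.6% in E2F3 +/- glands and 48.1% to 53.4% in WT glands. Single arrays moved the members' counts, and the share of all probes was not counted in those fits. The E2F3 +/- day 2 count fell to 2 without lactation replicate 1 or day 2 replicate 2, the day 3 count to 5 without lactation replicate 2 and to 4 without day 3 replicate 2, and the day 4 count to 7 without lactation replicate 1. The WT day 1 count fell to between 1 and 3 when any 1 of its 6 arrays was left out. The WT day 3 count fell to 1 without lactation replicate 2 or 3 or day 3 replicate 1 or 2, and the day 4 count to 3 without lactation replicate 2 or 3. Tested over the 4 days at once, 9 members passed in E2F3 +/- glands (77.1% of all probes) and 10 in WT glands (82%).

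**Figure D1:**
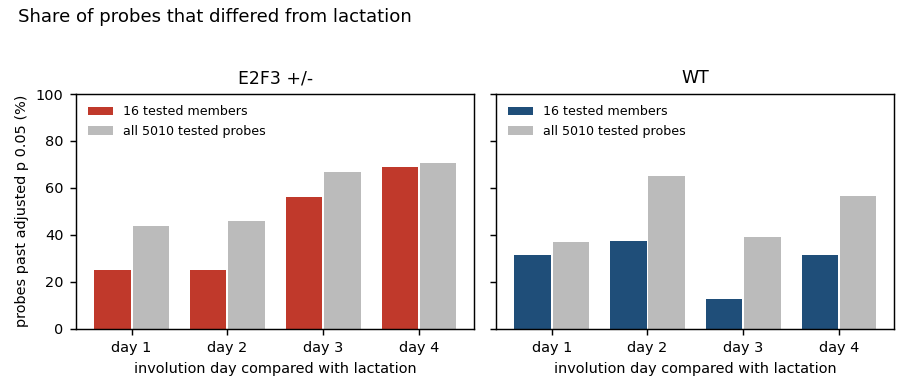
Share of the 16 tested members and of all 5010 tested probes (y axis, percent) that passed an adjusted p of 0.05 against lactation at each involution day (x axis), in E2F3 +/- glands (left) and WT glands (right). The coloured bar lies below the grey bar at every day, closest at day 4 in E2F3 +/- glands (68.8% and 70.5%).

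The members did not move as a block. *Tnfaip2* and *Traf7* were higher in 6 of the 8 comparisons with lactation, *Bnip2* in 4, *Casp2* in 3, *Birc3* in 2, and *Bak1* and *Bnip3l* in 1 each. *Bnip3* was lower in 6, *Diablo* in 5, *Birc2* and *Traf4* in 3, and *Tnfrsf1a* and *Traf3ip2* in 1 each. *Tnfaip8* and *Tnfrsf1b* each passed in 1 comparison upward and in 1 downward.

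**Figure D2:**
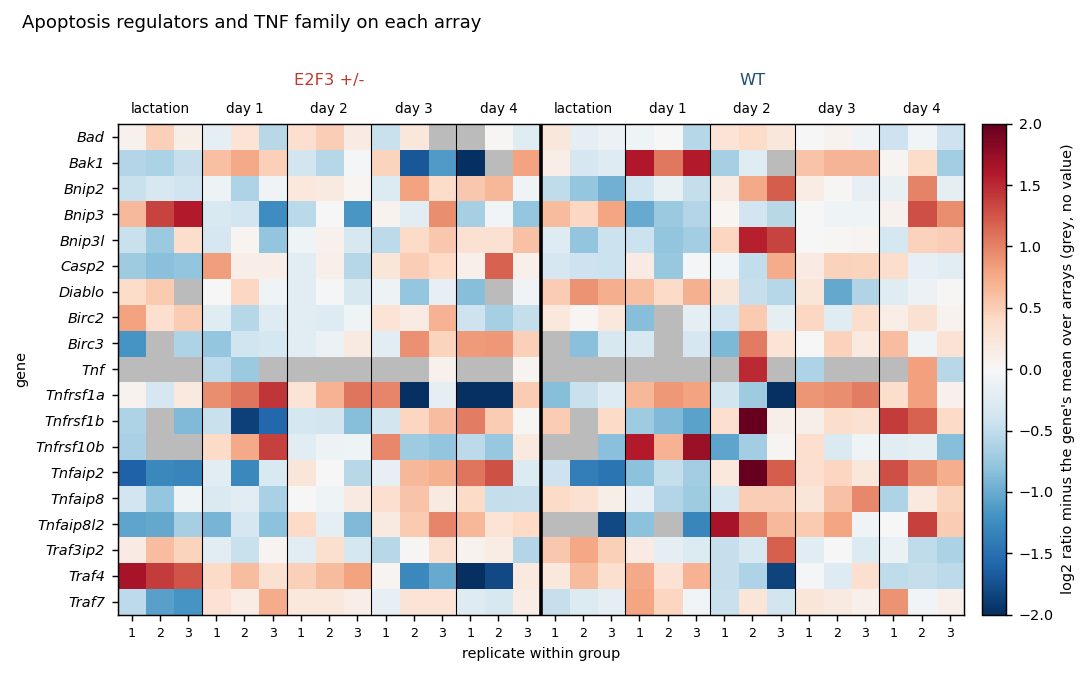
Log2 ratio of each of the 19 members (rows) on each of the 30 arrays (columns), minus the gene's mean over arrays, with E2F3 +/- glands left of WT glands and lactation to day 4 within each. Grey marks no value. *Tnf* is grey on 22 arrays, and *Bak1*, *Tnfrsf1a* and *Traf4* change together between replicates of E2F3 +/- days 3 and 4.

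*Tnf*, the ligand of Tnfrsf1a and Tnfrsf1b and a product of activated macrophages, had a value on 8 arrays. In E2F3 +/- glands the *Tnf* ratio was 1.07 and 0.919 on day 1 replicates 1 and 2, 1.62 on day 3 replicate 3 and 1.59 on day 4 replicate 3. In WT glands it was 4.32 on day 2 replicate 2, 0.999 on day 3 replicate 1, and 2.71 and 1.05 on day 4 replicates 2 and 3. The other 22 arrays had no value. The gene had a value on 0 of the 6 lactation arrays and its highest ratio on WT day 2 replicate 2. It was not tested, because a missing value here may be a low signal or a failed spot.

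*Tnfrsf1a*, the widely expressed TNF receptor with a death domain, had its highest ratios at day 1 in E2F3 +/- glands. *Tnfrsf1a* ratios in E2F3 +/- glands were 1.09, 0.825 and 1.19 at lactation, 1.99, 2.18 and 2.79 at day 1, 1.26, 1.68 and 2.18 at day 2, 2.04, 0.250 and 0.908 at day 3, and 0.0831, 0.232 and 1.47 at day 4. WT glands had *Tnfrsf1a* ratios of 0.574, 0.763 and 0.868 at lactation, 1.65, 1.90 and 1.81 at day 1, 0.803, 0.636 and 0.171 at day 2, 1.91, 1.99 and 2.11 at day 3, and 1.33, 1.84 and 1.10 at day 4. At day 1 the E2F3 +/- arrays all lay above those of E2F3 +/- lactation, and likewise the WT arrays above those of WT lactation, but neither passed (log2 1.17 ± 0.70, adjusted p = 0.165 and 1.30 ± 0.70, adjusted p = 0.146). At day 4 of E2F3 +/- glands replicates 1 and 2 lay far below lactation while replicate 3 lay above it. The difference there was log2 -1.74 ± 0.70, adjusted p = 0.0309, the only passing difference from lactation of this gene. It was lost without E2F3 +/- lactation replicate 1 or 3 (adjusted p = 0.0671 and 0.0769) or E2F3 +/- day 4 replicate 1 or 2 (adjusted p = 0.293 and 0.0947). Nor did it pass with quantile normalization (adjusted p = 0.0643) or with only the groups compared in the fit (adjusted p = 0.153). Without the 3 arrays that stood apart it was log2 -2.88 ± 0.41, adjusted p = 3.17e-06, and WT days 1, 3 and 4 then passed upward (log2 1.30, 1.47 and 0.94). In that fit E2F3 +/- day 1 also passed upward and E2F3 +/- day 3 downward (log2 1.17 and -1.10).

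*Tnfrsf1b*, the TNF receptor without a death domain that is prominent on leukocytes, was higher at day 4 in E2F3 +/- glands and lower at day 1 in WT glands. *Tnfrsf1b* ratios in E2F3 +/- glands were 0.382, no value and 0.318 at lactation, 0.432, 0.161 and 0.197 at day 1, 0.460, 0.454 and 0.327 at day 2, 0.455, 0.791 and 0.897 at day 3, and 1.20, 0.836 and 0.595 at day 4. WT glands had *Tnfrsf1b* ratios of 0.835, no value and 0.762 at lactation, 0.358, 0.319 and 0.280 at day 1, 0.745, 2.94 and 0.637 at day 2, 0.639, 0.748 and 0.727 at day 3, and 1.55, 1.34 and 0.767 at day 4. The E2F3 +/- day 4 arrays all lay above the 2 measured E2F3 +/- lactation arrays, and the WT day 1 arrays all below the 2 measured WT lactation arrays. The differences were log2 1.27 ± 0.50, adjusted p = 0.0272 in E2F3 +/- glands and log2 -1.33 ± 0.50, adjusted p = 0.0401 in WT glands. The first was lost without E2F3 +/- lactation replicate 1 or 3 (adjusted p = 0.0603 and 0.122) or E2F3 +/- day 4 replicate 1 or 2 (adjusted p = 0.103 and 0.0529). The second was lost when any 1 measured array of either group was left out (adjusted p from 0.0621 to 0.141) and without centring (adjusted p = 0.0592). It turned to log2 0.36 when ratios of 0 and 0.01 were kept at 0.02, since WT lactation replicate 2 is one of those. With the 3 arrays that stood apart left out, the E2F3 +/- day 4 difference was log2 1.52 ± 0.48, adjusted p = 0.00783, and E2F3 +/- day 3 passed too (log2 1.27 ± 0.48, adjusted p = 0.0228).

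*Tnfrsf10b*, the mouse receptor for the death ligand TRAIL, had values on 1 array of each lactation group and was not tested. *Tnfrsf10b* ratios in E2F3 +/- glands were 0.356, no value and no value at lactation, 0.729, 0.949 and 1.45 at day 1, 0.480, 0.519 and 0.527 at day 2, 1.09, 0.342 and 0.323 at day 3, and 0.388, 0.332 and 0.638 at day 4. WT glands had *Tnfrsf10b* ratios of no value, no value and 0.312 at lactation, 1.67, 0.904 and 1.86 at day 1, 0.269, 0.344 and 0.581 at day 2, 0.705, 0.457 and 0.527 at day 3, and 0.475, 0.490 and 0.310 at day 4. The highest ratio of each genotype was on a day 1 array. On E2F3 +/- day 3 replicate 1 the ratio was above those of the other 2 day 3 arrays of that genotype.

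The promoters of *Tnfrsf1a* and *Tnfrsf1b* are shown because both genes carry, in the 300 bases from 250 before to 50 after the start site, the spaced palindrome TTCNNNGAA, read the same on both strands and known as the core of binding sites for STAT factors, which are central to involution. Of 32851 mouse promoter windows of this length, 8.3% held it. Sequences are from RefSeq on GRCm38.p6, with the motif in capitals, on the plus strand at chr6:125349473-125349772 for *Tnfrsf1a* (first motif base at -244) and on the minus strand at chr4:145246821-145247120 for *Tnfrsf1b* (first motif base at -181).
Tnfrsf1a: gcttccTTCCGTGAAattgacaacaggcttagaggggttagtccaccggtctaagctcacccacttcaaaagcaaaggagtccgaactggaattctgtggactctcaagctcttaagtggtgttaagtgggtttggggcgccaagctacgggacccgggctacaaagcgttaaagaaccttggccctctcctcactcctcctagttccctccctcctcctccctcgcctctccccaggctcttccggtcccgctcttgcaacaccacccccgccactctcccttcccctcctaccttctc
Tnfrsf1b: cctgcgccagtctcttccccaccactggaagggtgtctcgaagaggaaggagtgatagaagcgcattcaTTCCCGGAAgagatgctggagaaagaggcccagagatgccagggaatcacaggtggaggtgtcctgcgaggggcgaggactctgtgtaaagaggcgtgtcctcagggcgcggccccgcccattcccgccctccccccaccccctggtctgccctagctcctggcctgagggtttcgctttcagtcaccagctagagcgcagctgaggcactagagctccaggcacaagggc
A match is a description of these letters and not of binding. Windows were found for 15 of the 19 members (18 windows), and the other 13 genes with a window did not hold this motif. None of the 18 windows held the NF-kB consensus (4.51% of all windows), the E2F motifs TTTGGCGC (0.514%) or TTTCGCGC (0.323%), or the AP-1 motif TGANTCA (7.81%), searched on both strands.

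Among the adaptors, *Traf4*, a TRAF protein of epithelial cells and cell junctions, fell at days 3 and 4 in E2F3 +/- glands and at day 2 in WT glands. *Traf4* ratios in E2F3 +/- glands were 3.54, 2.95 and 2.70 at lactation, 1.47, 1.73 and 1.39 at day 1, 1.56, 1.75 and 1.96 at day 2, 1.16, 0.458 and 0.558 at day 3, and 0.245, 0.322 and 1.29 at day 4. WT glands had *Traf4* ratios of 1.30, 1.74 and 1.41 at lactation, 1.91, 1.37 and 1.83 at day 1, 0.818, 0.731 and 0.313 at day 2, 1.10, 0.940 and 1.42 at day 3, and 0.793, 0.809 and 0.781 at day 4. In E2F3 +/- glands every day 3 and day 4 array lay below all 3 lactation arrays, and in WT glands every day 2 and day 4 array lay below all 3 lactation arrays. The difference was log2 -2.19 ± 0.43, adjusted p = 0.000235 at E2F3 +/- day 3 and log2 -2.70 ± 0.43, adjusted p = 1.97e-05 at E2F3 +/- day 4. At WT day 2 it was log2 -1.36 ± 0.43, adjusted p = 0.00826, a call lost without WT day 2 replicate 3 alone (adjusted p = 0.0766), and at WT day 4 log2 -0.89 ± 0.43, adjusted p = 0.0765. After omission of the 3 arrays that stood apart, the E2F3 +/- differences were log2 -2.59 ± 0.21, adjusted p = 6.1e-09 at day 3 and log2 -3.44 ± 0.21, adjusted p = 4.79e-11 at day 4, and that of WT day 2 was log2 -0.93 ± 0.21, adjusted p = 0.001. Milk secretory markers were lower in the same comparisons. Of 6 tested probes, 5 were lower at E2F3 +/- day 3 (median log2 -1.90), 6 at E2F3 +/- day 4 (-2.43) and 6 at WT day 2 (-3.73). They were lower at WT day 4 as well (6 of 6, -2.35), where *Traf4* did not pass. Luminal epithelial markers went the other way. Of 6 tested luminal probes, 4 were higher at E2F3 +/- day 3 (median log2 1.76) and 4 at E2F3 +/- day 4 (1.38). In WT glands 3 were higher at day 2 (1.12) and 3 at day 4 (1.47), and 0 were lower in any of these comparisons. The part of either list in the fall of *Traf4* was not tested.

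*Traf7*, a TRAF protein with a RING finger and WD40 repeats, rose at each of the 4 days in E2F3 +/- glands. *Traf7* ratios in E2F3 +/- glands were 0.643, 0.434 and 0.407 at lactation, 1.12, 1.02 and 1.55 at day 1, 1.06, 1.07 and 1.01 at day 2, 0.820, 1.12 and 1.11 at day 3, and 0.772, 0.738 and 1.03 at day 4. WT glands had *Traf7* ratios of 0.669, 0.763 and 0.806 at lactation, 1.59, 1.24 and 0.885 at day 1, 0.678, 1.09 and 0.718 at day 2, 1.09, 1.04 and 0.994 at day 3, and 1.72, 0.892 and 0.990 at day 4. All 12 E2F3 +/- involution arrays lay above the 3 E2F3 +/- lactation arrays. Day 1 differed by log2 1.32 ± 0.26, adjusted p = 0.000434, and day 2 by log2 1.11 ± 0.26, adjusted p = 0.00188. Day 3 differed by log2 1.06 ± 0.26, adjusted p = 0.00193, and day 4 by log2 0.79 ± 0.26, adjusted p = 0.0113. That last call did not hold without E2F3 +/- lactation replicate 3 (adjusted p = 0.0543) or E2F3 +/- day 4 replicate 3 (adjusted p = 0.0508), and without the 3 arrays that stood apart the values of days 3 and 4 were log2 1.20 and 0.64. In WT glands it was higher at day 1 (log2 0.69 ± 0.26, adjusted p = 0.0423) and day 4 (log2 0.63 ± 0.26, adjusted p = 0.0459). The WT day 1 call did not hold when any 1 of the 6 arrays other than WT day 1 replicate 3 was left out (adjusted p up to 0.206). The WT day 4 call did not hold when any WT lactation array or WT day 4 replicate 1 was left out (adjusted p up to 0.278). Both WT calls were also lost with 0 and 0.01 kept at 0.02 (adjusted p = 0.0974 and 0.125) and with missing values ranked lowest in the centring (adjusted p = 0.0814 and 0.109).

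*Traf3ip2* (Act1), the adaptor of the interleukin-17 receptors rather than a TRAF itself, was lower at WT day 4. *Traf3ip2* ratios in E2F3 +/- glands were 2.01, 2.74 and 2.43 at lactation, 1.55, 1.32 and 1.86 at day 1, 1.55, 2.25 and 1.40 at day 2, 1.22, 1.81 and 2.24 at day 3, and 1.89, 1.99 and 1.19 at day 4. WT glands had *Traf3ip2* ratios of 2.59, 3.07 and 2.50 at lactation, 2.00, 1.59 and 1.49 at day 1, 1.31, 1.44 and 4.10 at day 2, 1.55, 1.81 and 1.48 at day 3, and 1.63, 1.26 and 1.16 at day 4. The 3 WT day 4 arrays lay below all WT lactation arrays, with log2 -1.02 ± 0.32, adjusted p = 0.0115. In E2F3 +/- glands day 4 differed by log2 -0.53 ± 0.32, adjusted p = 0.144. WT day 2 replicate 3 had the highest ratio of all, 4.10, above the other 2 arrays of its group (1.31 and 1.44). The skeletal muscle probe *Eno3* was at 41.8 on that array and at 17.2 and 3.86 on replicates 1 and 2. High *Eno3* did not go with high *Traf3ip2* on other arrays. *Eno3* was at 27.3, 67.2 and 0.156 on E2F3 +/- day 4 replicates 1, 2 and 3, where *Traf3ip2* was at 1.89, 1.99 and 1.19. On WT day 4 replicates 1, 2 and 3 *Eno3* was at 19.5, 7.26 and 27.6, and *Traf3ip2* at 1.63, 1.26 and 1.16. Of 7 tested skeletal muscle probes, 0, 7, 3 and 7 were higher at WT days 1 to 4, with a median of log2 4.12 at day 2. In E2F3 +/- glands 0, 1, 5 and 2 were higher. The part of muscle in the members' values was not tested. In the fit omitting the 3 arrays that stood apart, all 4 WT days and days 1 and 2 of E2F3 +/- glands passed downward (WT day 2 log2 -0.98 ± 0.23, adjusted p = 0.00098).

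*Tnfaip2*, which endothelial and myeloid cells switch on in response to TNF, rose at days 2, 3 and 4 in both genotypes. *Tnfaip2* ratios in E2F3 +/- glands were 0.130, 0.162 and 0.159 at lactation, 0.344, 0.163 and 0.324 at day 1, 0.472, 0.395 and 0.270 at day 2, 0.354, 0.630 and 0.654 at day 3, and 0.834, 0.967 and 0.331 at day 4. WT glands had *Tnfaip2* ratios of 0.298, 0.152 and 0.144 at lactation, 0.225, 0.287 and 0.245 at day 1, 0.460, 3.23 and 0.920 at day 2, 0.502, 0.535 and 0.464 at day 3, and 0.977, 0.755 and 0.656 at day 4. Every array of E2F3 +/- days 2, 3 and 4 lay above all E2F3 +/- lactation arrays, and every array of WT days 2, 3 and 4 above all WT lactation arrays. E2F3 +/- day 2 differed by log2 1.30 ± 0.49, adjusted p = 0.0329. E2F3 +/- day 3 gave log2 1.82 ± 0.49, adjusted p = 0.00324, and E2F3 +/- day 4 log2 2.11 ± 0.49, adjusted p = 0.0008. WT day 2 differed by log2 2.57 ± 0.49, adjusted p = 0.000134. WT day 3 gave log2 1.42 ± 0.49, adjusted p = 0.0246, and WT day 4 log2 2.07 ± 0.49, adjusted p = 0.00138. The E2F3 +/- day 2 call did not hold when any 1 of the 6 arrays other than E2F3 +/- day 2 replicate 3 was left out (adjusted p up to 0.111). Nor did it pass with quantile normalization (adjusted p = 0.0698), with 0 and 0.01 kept at 0.02 (adjusted p = 0.0898) or with missing values ranked lowest in the centring (adjusted p = 0.057). The WT day 3 call did not hold without WT lactation replicate 2 or 3 or WT day 3 replicate 1 or 2 (adjusted p up to 0.0924) and with 0 and 0.01 kept at 0.02 (adjusted p = 0.0665). When the 3 arrays that stood apart were left out, the E2F3 +/- values were log2 2.10 at day 3 and 2.59 at day 4, and that of WT day 2 was 2.70.

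Macrophage markers were also higher during involution, some of them from day 1, when *Tnfaip2* did not pass. Of 10 tested probes, 4, 9, 10 and 10 were higher at days 1 to 4 in E2F3 +/- glands and 2, 10, 10 and 10 in WT glands. Their median log2 difference at days 1 to 4 was 0.96, 1.89, 2.83 and 2.96 in E2F3 +/- glands. In WT glands it was -0.06, 2.68, 2.42 and 2.83. Their summed ratio (9 probes with values throughout) ran in E2F3 +/- glands from 12.9 to 26.2 at lactation, 147.8 to 155.0 at day 1, 114.0 to 134.9 at day 2, 150.8 to 269.1 at day 3 and 115.2 to 239.8 at day 4. In WT glands it ran from 29.8 to 42.6 at lactation, 68.2 to 135.0 at day 1, 166.4 to 659.8 at day 2, 158.2 to 312.4 at day 3 and 228.1 to 338.6 at day 4. The sum gives most weight to the probes with the largest ratios and need not follow the median. The value of 659.8 is that of WT day 2 replicate 2, the array with the highest ratios of *Tnf* (4.32), *Tnfrsf1b* (2.94), *Tnfaip2* (3.23) and *Birc3* (4.43). *Tnfaip8l2* was instead highest on WT day 2 replicate 1 (6.96), which had the lowest macrophage sum of its group (166.4). The part of macrophages in the rise of *Tnfaip2* and in these ratios was not tested.

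*Tnfaip8*, an inhibitor of caspase activation named for its induction by TNF, was higher at E2F3 +/- day 3 and lower at WT day 1. *Tnfaip8* ratios in E2F3 +/- glands were 0.875, 0.667 and 1.07 at lactation, 0.933, 0.977 and 0.723 at day 1, 1.13, 1.07 and 1.29 at day 2, 1.43, 1.68 and 1.28 at day 3, and 1.48, 0.814 and 0.828 at day 4. WT glands had *Tnfaip8* ratios of 1.49, 1.41 and 1.24 at lactation, 1.02, 0.759 and 0.697 at day 1, 0.887, 1.60 and 1.60 at day 2, 1.35, 1.71 and 2.21 at day 3, and 0.739, 1.30 and 1.56 at day 4. The 3 E2F3 +/- day 3 arrays lay above all E2F3 +/- lactation arrays (log2 0.77 ± 0.29, adjusted p = 0.0251), and the 3 WT day 1 arrays below all WT lactation arrays (log2 -0.76 ± 0.29, adjusted p = 0.0456). The E2F3 +/- call did not hold without E2F3 +/- lactation replicate 2 (adjusted p = 0.115) or E2F3 +/- day 3 replicate 2 (adjusted p = 0.0886), with 0 and 0.01 kept at 0.02 (adjusted p = 0.0839) and with missing values ranked lowest in the centring (adjusted p = 0.062). The WT call did not hold when any 1 of the 6 arrays other than WT day 1 replicate 1 was left out (adjusted p up to 0.133) and without centring (adjusted p = 0.0915). In the fit omitting the 3 arrays that stood apart, E2F3 +/- day 3 gave log2 0.78 ± 0.32, adjusted p = 0.0338.

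*Tnfaip8l2* (TIPE2), an immune relative of Tnfaip8 that dampens inflammatory receptor signals, had 1 value at WT lactation and was not tested with the others. *Tnfaip8l2* ratios in E2F3 +/- glands were 1.07, 1.09 and 1.40 at lactation, 1.16, 1.76 and 1.25 at day 1, 2.90, 1.95 and 1.20 at day 2, 2.50, 3.17 and 4.37 at day 3, and 3.50, 2.67 and 2.92 at day 4. WT glands had *Tnfaip8l2* ratios of no value, no value and 0.635 at lactation, 1.25, no value and 0.897 at day 1, 6.96, 4.52 and 3.48 at day 2, 3.18, 3.81 and 2.10 at day 3, and 2.20, 5.73 and 3.16 at day 4. All 6 E2F3 +/- arrays of days 3 and 4 lay above the 3 E2F3 +/- lactation arrays. With the filter relaxed to 2 values in each group compared, E2F3 +/- days 3 and 4 were higher than lactation by log2 1.47 ± 0.36 (adjusted p = 0.00209) and 1.36 ± 0.36 (adjusted p = 0.00295).

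**Figure D3:**
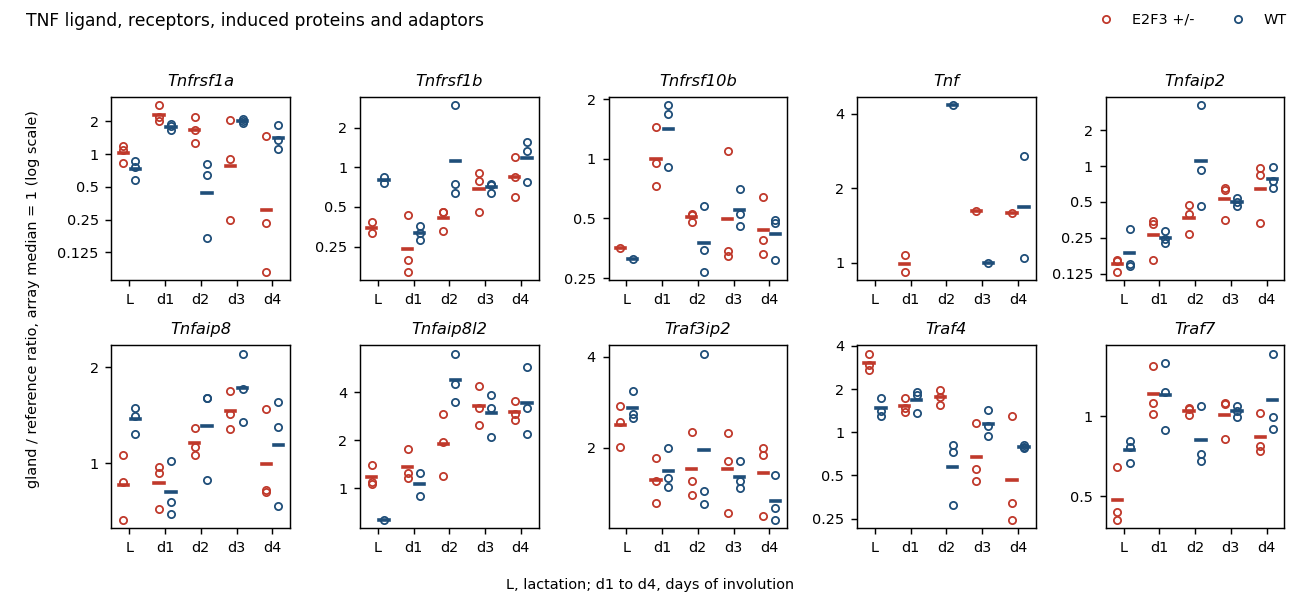
Ratio of gland over reference (y axis, log scale, array median at 1) of the 10 TNF family members against time (x axis, lactation to day 4), with E2F3 +/- glands in red left of WT glands in blue. Each circle is 1 array and each bar the mean of log ratios. *Tnfaip2* climbs in both genotypes, while *Tnfrsf1a* and *Traf4* spread widely at E2F3 +/- days 3 and 4.

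The 2 IAP genes, ubiquitin ligases that act at the TNF receptor complex, moved in opposite directions in E2F3 +/- glands. *Birc2* ratios in E2F3 +/- glands were 1.12, 0.810 and 0.914 at lactation, 0.544, 0.435 and 0.538 at day 1, 0.548, 0.538 and 0.608 at day 2, 0.780, 0.722 and 1.04 at day 3, and 0.485, 0.406 and 0.464 at day 4. WT glands had *Birc2* ratios of 0.744, 0.658 and 0.743 at lactation, 0.356, no value and 0.566 at day 1, 0.492, 0.930 and 0.570 at day 2, 0.856, 0.547 and 0.824 at day 3, and 0.702, 0.799 and 0.678 at day 4. The E2F3 +/- arrays of days 1, 2 and 4 all lay below those of E2F3 +/- lactation, and those of day 3 overlapped them. *Birc2* (cIAP1) was lower at day 1 (log2 -0.90 ± 0.24, adjusted p = 0.00501), at day 2 (log2 -0.74 ± 0.24, adjusted p = 0.0166) and at day 4 (log2 -1.06 ± 0.24, adjusted p = 0.000691). In WT glands day 1 gave log2 -0.67 ± 0.27, adjusted p = 0.0527 (2 and 3 arrays). With 0 and 0.01 kept at 0.02, all 3 E2F3 +/- calls were lost (adjusted p = 0.265, 0.364 and 0.197), and the day 2 call also without E2F3 +/- lactation replicate 1 (adjusted p = 0.0751) or E2F3 +/- day 2 replicate 2 (adjusted p = 0.0505). Without the 3 arrays that stood apart the day 4 value was log2 -1.08 ± 0.27, adjusted p = 0.00121.

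*Birc3* (cIAP2), a textbook NF-kB target, rose in E2F3 +/- glands at days 3 and 4. *Birc3* ratios in E2F3 +/- glands were 0.949, no value and 1.40 at lactation, 1.26, 1.62 and 1.68 at day 1, 1.86, 1.99 and 2.44 at day 2, 1.85, 4.06 and 2.93 at day 3, and 3.85, 3.91 and 2.98 at day 4. WT glands had *Birc3* ratios of no value, 1.20 and 1.72 at lactation, 1.72, no value and 1.70 at day 1, 1.15, 4.43 and 2.59 at day 2, 2.16, 2.94 and 2.46 at day 3, and 3.31, 2.05 and 2.62 at day 4. All arrays of E2F3 +/- days 3 and 4 lay above the 2 measured E2F3 +/- lactation arrays. The gene was higher by log2 1.28 ± 0.40, adjusted p = 0.00952 at day 3 and log2 1.62 ± 0.40, adjusted p = 0.00158 at day 4, and in WT glands day 4 gave log2 0.86 ± 0.40, adjusted p = 0.0694. The day 3 call did not hold without E2F3 +/- lactation replicate 1 (adjusted p = 0.0941) or E2F3 +/- day 3 replicate 2 (adjusted p = 0.0507). With 0 and 0.01 kept at 0.02 the values were log2 3.12 (adjusted p = 0.1) at day 3 and 3.60 (adjusted p = 0.0539) at day 4. With the 3 arrays that stood apart left out, they were log2 1.58 and 1.75.

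*Casp2*, an initiator caspase of stress signalling, rose in E2F3 +/- glands at days 1, 3 and 4. *Casp2* ratios in E2F3 +/- glands were 0.662, 0.611 and 0.632 at lactation, 1.94, 1.19 and 1.19 at day 1, 0.928, 1.16 and 0.730 at day 2, 1.29, 1.53 and 1.44 at day 3, and 1.17, 2.45 and 1.16 at day 4. WT glands had *Casp2* ratios of 0.858, 0.820 and 0.812 at lactation, 1.22, 0.642 and 1.06 at day 1, 1.05, 0.772 and 1.82 at day 2, 1.22, 1.50 and 1.48 at day 3, and 1.39, 0.972 and 0.926 at day 4. Every E2F3 +/- involution array lay above the 3 E2F3 +/- lactation arrays. Day 1 differed by log2 1.14 ± 0.31, adjusted p = 0.00565, and day 2 by log2 0.54 ± 0.31, adjusted p = 0.147. Day 3 differed by log2 1.16 ± 0.31, adjusted p = 0.00322, and day 4 by log2 1.23 ± 0.31, adjusted p = 0.00159. In WT glands the largest was log2 0.75 ± 0.31, adjusted p = 0.0575 at day 3. No genotype by time difference of *Casp2* passed, the largest being log2 0.96 ± 0.44, adjusted p = 0.555 at day 1. After omission of the 3 arrays that stood apart, the E2F3 +/- values at days 3 and 4 were log2 1.22 and 1.41, and WT day 3 passed (adjusted p = 0.0269).

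*Diablo* (Smac), the mitochondrial protein that binds IAP proteins once released, fell in both genotypes. *Diablo* ratios in E2F3 +/- glands were 1.27, 1.42 and no value at lactation, 0.977, 1.31 and 0.925 at day 1, 0.852, 0.966 and 0.785 at day 2, 0.920, 0.578 and 0.875 at day 3, and 0.546, no value and 0.936 at day 4. WT glands had *Diablo* ratios of 1.40, 1.84 and 1.63 at lactation, 1.50, 1.28 and 1.61 at day 1, 1.17, 0.720 and 0.661 at day 2, 1.16, 0.485 and 0.652 at day 3, and 0.837, 0.913 and 0.998 at day 4. The WT arrays of days 2, 3 and 4 all lay below those of WT lactation, and the measured E2F3 +/- arrays of days 3 and 4 below the 2 measured E2F3 +/- lactation arrays. E2F3 +/- day 3 differed by log2 -0.79 ± 0.32, adjusted p = 0.0354, and E2F3 +/- day 4 by log2 -0.91 ± 0.35, adjusted p = 0.0265 (2 arrays against 2). WT day 2 differed by log2 -0.97 ± 0.29, adjusted p = 0.00626. WT day 3 gave log2 -1.17 ± 0.29, adjusted p = 0.00317, and WT day 4 log2 -0.82 ± 0.29, adjusted p = 0.0212. With 0 and 0.01 kept at 0.02 all 5 calls were lost and the E2F3 +/- day 3 value turned to log2 1.11, since E2F3 +/- lactation replicate 3 is one of those values. The E2F3 +/- calls were also lost without centring (adjusted p = 0.061 and 0.0638) and with only the groups compared (adjusted p = 0.055 and 0.0901). They were lost, too, without either measured lactation array (adjusted p from 0.0548 to 0.141), day 3 replicate 2 (adjusted p = 0.148) or day 4 replicate 1 (adjusted p = 0.275). The WT day 4 call did not hold without WT lactation replicate 2 or 3 (adjusted p = 0.0736 and 0.0506) or WT day 4 replicate 1 (adjusted p = 0.0605). In the fit omitting the 3 arrays that stood apart, the values were log2 -0.92 at E2F3 +/- day 3, -1.30 at E2F3 +/- day 4 (1 array against 2) and -0.81 at WT day 2.

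*Bnip3*, a mitochondrial BH3-like protein of hypoxia-induced death and mitophagy, fell by day 1 in both genotypes. *Bnip3* ratios in E2F3 +/- glands were 0.353, 0.579 and 0.680 at lactation, 0.182, 0.173 and 0.0952 at day 1, 0.156, 0.227 and 0.100 at day 2, 0.237, 0.194 and 0.430 at day 3, and 0.142, 0.216 and 0.132 at day 4. WT glands had *Bnip3* ratios of 0.351, 0.300 and 0.390 at lactation, 0.112, 0.136 and 0.150 at day 1, 0.233, 0.172 and 0.154 at day 2, 0.225, 0.212 and 0.213 at day 3, and 0.240, 0.550 and 0.430 at day 4. The arrays of days 1 and 2 all lay below lactation in E2F3 +/- glands and likewise in WT glands. E2F3 +/- day 1 differed by log2 -1.85 ± 0.35, adjusted p = 0.000264, and E2F3 +/- day 2 by log2 -1.76 ± 0.35, adjusted p = 0.000396. E2F3 +/- day 3 differed by log2 -0.94 ± 0.35, adjusted p = 0.0228, and E2F3 +/- day 4 by log2 -1.70 ± 0.35, adjusted p = 0.000288. WT day 1 differed by log2 -1.39 ± 0.35, adjusted p = 0.00323, and WT day 2 by log2 -0.91 ± 0.35, adjusted p = 0.0258. WT day 3 gave log2 -0.67 ± 0.35, adjusted p = 0.123, and WT day 4 log2 0.16 ± 0.35, adjusted p = 0.698. WT day 4 arrays thus overlapped WT lactation, while those of E2F3 +/- day 4 lay below E2F3 +/- lactation. The genotype by time difference at day 4 was log2 -1.85 ± 0.49, adjusted p = 0.101. When the 3 arrays that stood apart were left out, the day 4 genotype by time difference was log2 -1.72 ± 0.53, adjusted p = 0.0311.

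The *Bnip3* call at E2F3 +/- day 3 was lost without E2F3 +/- lactation replicate 2 or 3 or E2F3 +/- day 3 replicate 1 or 2 (adjusted p up to 0.12). It was also lost with quantile normalization (adjusted p = 0.0616), with array weights (adjusted p = 0.111) and with only the groups compared (adjusted p = 0.0617). The call at WT day 2 was lost without WT lactation replicate 1 or 3 or WT day 2 replicate 2 or 3 (adjusted p up to 0.0897). It was also lost without centring (adjusted p = 0.0677), with quantile normalization (log2 -0.38, adjusted p = 0.362) and with array weights (adjusted p = 0.0944). Without the 3 arrays that stood apart neither passed (log2 -0.84 ± 0.39, adjusted p = 0.0574 at E2F3 +/- day 3 and -0.79 ± 0.39, adjusted p = 0.0853 at WT day 2), while E2F3 +/- day 4 gave log2 -1.56 ± 0.39, adjusted p = 0.00129. The *Bnip3* promoter is shown because it held the only ACGTG among the members' windows, the core letters of hypoxia response elements, present on both strands as the palindrome in capitals (first bases at -108 and -107), which 19.6% of all windows held on either strand. It is the RefSeq sequence on GRCm38.p6, minus strand, chr7:138909457-138909756.
Bnip3: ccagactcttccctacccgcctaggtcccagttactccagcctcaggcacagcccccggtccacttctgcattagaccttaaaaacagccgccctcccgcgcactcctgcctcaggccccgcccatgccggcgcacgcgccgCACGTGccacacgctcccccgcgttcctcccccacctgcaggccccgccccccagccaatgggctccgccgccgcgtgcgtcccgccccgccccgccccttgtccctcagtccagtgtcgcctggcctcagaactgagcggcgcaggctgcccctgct

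*Bnip3l* (Nix), the relative of Bnip3 with a role in mitophagy, passed in 1 of the 8 comparisons with lactation, upward at WT day 2. *Bnip3l* ratios in E2F3 +/- glands were 0.350, 0.287 and 0.611 at lactation, 0.378, 0.498 and 0.278 at day 1, 0.452, 0.509 and 0.383 at day 2, 0.334, 0.625 and 0.696 at day 3, and 0.591, 0.593 and 0.716 at day 4. WT glands had *Bnip3l* ratios of 0.398, 0.276 and 0.354 at lactation, 0.353, 0.277 and 0.295 at day 1, 0.643, 1.40 and 1.22 at day 2, 0.474, 0.484 and 0.497 at day 3, and 0.376, 0.656 and 0.673 at day 4. The WT day 2 arrays all lay above those of WT lactation, and WT day 2 replicates 2 and 3 had the 2 highest ratios of all 30 arrays. The day 2 difference was log2 0.17 ± 0.32, adjusted p = 0.651 in E2F3 +/- glands, against log2 1.61 ± 0.32, adjusted p = 0.000232 in WT glands. With the 3 arrays that stood apart left out, the WT day 2 difference was log2 1.48 ± 0.33, adjusted p = 0.000728, and E2F3 +/- day 3 (log2 0.74 ± 0.33, adjusted p = 0.0468) and WT day 4 (log2 0.70 ± 0.30, adjusted p = 0.0418) then also passed.

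*Bnip2*, a BNIP protein named for its binding to Bcl-2 and an adenovirus protein, was higher at days 3 and 4 in E2F3 +/- glands and at days 2 and 4 in WT glands. *Bnip2* ratios in E2F3 +/- glands were 0.691, 0.754 and 0.712 at lactation, 0.882, 0.613 and 0.895 at day 1, 1.09, 1.07 and 0.966 at day 2, 0.779, 1.64 and 1.22 at day 3, and 1.37, 1.49 and 0.901 at day 4. WT glands had *Bnip2* ratios of 0.663, 0.549 and 0.485 at lactation, 0.717, 0.849 and 0.678 at day 1, 1.06, 1.60 and 2.19 at day 2, 1.05, 0.956 and 0.843 at day 3, and 0.851, 1.87 and 0.824 at day 4. In each of these comparisons the involution arrays all lay above those of lactation. The differences were log2 0.69 ± 0.30, adjusted p = 0.0489 at E2F3 +/- day 3, log2 0.77 ± 0.30, adjusted p = 0.0275 at E2F3 +/- day 4, log2 1.46 ± 0.30, adjusted p = 0.000334 at WT day 2 and log2 0.96 ± 0.30, adjusted p = 0.0112 at WT day 4. The E2F3 +/- day 3 call did not hold when any 1 of the 6 arrays other than E2F3 +/- day 3 replicate 1 was left out (adjusted p up to 0.242) and under 5 other settings, among them quantile normalization (adjusted p = 0.0622). The E2F3 +/- day 4 call did not hold without E2F3 +/- lactation replicate 1 or 3 or day 4 replicate 1 or 2 (adjusted p up to 0.109) and with 0 and 0.01 kept at 0.02 (adjusted p = 0.0536). The WT day 4 call did not hold without WT day 4 replicate 2 alone (adjusted p = 0.105). After omission of the 3 arrays that stood apart, the values were log2 0.98 and 1.00 at E2F3 +/- days 3 and 4 and 1.21 at WT day 2.

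*Bak1*, the membrane-opening effector, rose at WT day 1. *Bak1* ratios in E2F3 +/- glands were 0.327, 0.317 and 0.355 at lactation, 0.738, 0.827 and 0.684 at day 1, 0.380, 0.329 and 0.481 at day 2, 0.663, 0.151 and 0.222 at day 3, and 0.109, no value and 0.855 at day 4. WT glands had *Bak1* ratios of 0.537, 0.389 and 0.408 at lactation, 1.48, 1.02 and 1.47 at day 1, 0.308, 0.415 and no value at day 2, 0.728, 0.787 and 0.787 at day 3, and 0.508, 0.629 and 0.301 at day 4. The 3 E2F3 +/- day 1 arrays lay above all E2F3 +/- lactation arrays (log2 1.17 ± 0.51, adjusted p = 0.0648), and the 3 WT day 1 arrays above all WT lactation arrays (log2 1.56 ± 0.51, adjusted p = 0.02). The WT call did not hold without WT lactation replicate 2 or 3 or WT day 1 replicate 1 or 3 (adjusted p up to 0.0637) and with 0 and 0.01 kept at 0.02 (adjusted p = 0.271). In the fit omitting the 3 arrays that stood apart, *Bak1* passed upward at day 1 of both genotypes and at WT day 3, and downward at E2F3 +/- day 3 (log2 -0.86 ± 0.27, adjusted p = 0.0083) and E2F3 +/- day 4 (log2 -1.61 ± 0.34, adjusted p = 0.000329, 1 array against 3).

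*Bad*, the BH3 protein held in check by growth factor kinases, did not pass in any comparison. *Bad* ratios in E2F3 +/- glands were 0.864, 1.13 and 0.887 at lactation, 0.709, 0.984 and 0.555 at day 1, 1.03, 1.15 and 0.915 at day 2, 0.600, 0.953 and no value at day 3, and no value, 0.831 and 0.689 at day 4. WT glands had *Bad* ratios of 0.949, 0.715 and 0.750 at lactation, 0.770, 0.813 and 0.549 at day 1, 0.981, 1.05 and 0.955 at day 2, 0.813, 0.855 and 0.772 at day 3, and 0.614, 0.784 and 0.609 at day 4. Its ratios stayed within 0.549 to 1.15 on the 28 arrays with a value. The largest difference from lactation was log2 -0.39 ± 0.23, adjusted p = 0.16 at E2F3 +/- day 1.

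**Figure D4:**
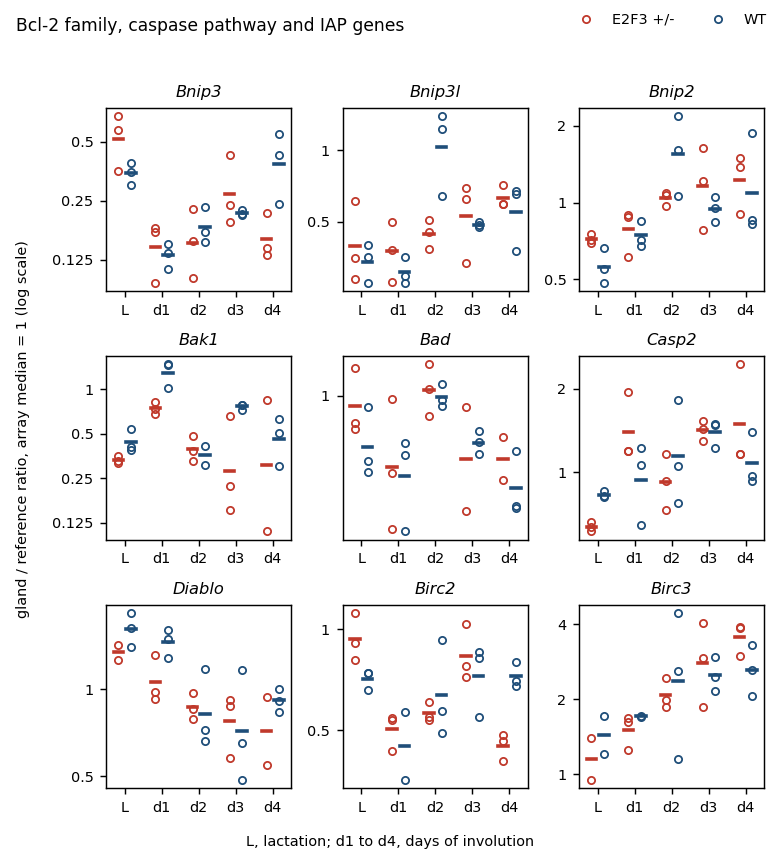
Ratio of gland over reference (y axis, log scale, array median at 1) of the 9 Bcl-2, BNIP, caspase pathway and IAP members against time (x axis, lactation to day 4), with E2F3 +/- glands in red left of WT glands in blue. Each circle is 1 array and each bar the mean of log ratios. *Bnip3* drops by day 1 in both genotypes, and *Bnip3l* is highest at WT day 2.

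Between genotypes, E2F3 +/- and WT glands differed in 4 of the 16 tested members at day 2, against 12.7% of all probes. *Traf4* was higher in E2F3 +/- glands (7.17% of all probes were), and *Bnip3l*, *Tnfaip2* and *Tnfrsf1b* were lower (5.57% of all probes were). *Traf4* ratios were 1.56, 1.75 and 1.96 on the E2F3 +/- day 2 arrays and 0.818, 0.731 and 0.313 on the WT day 2 arrays, with no overlap (log2 1.61 ± 0.43, adjusted p = 0.0177). *Bnip3l* (log2 -1.21 ± 0.32, adjusted p = 0.0177) and *Tnfrsf1b* (log2 -1.45 ± 0.44, adjusted p = 0.0362) also did not overlap between genotypes, and *Tnfaip2* (log2 -1.59 ± 0.49, adjusted p = 0.0354) did, since the lowest WT array (0.460) lay below the highest E2F3 +/- array (0.472). *Tnfaip8l2*, outside the test, differed by log2 -1.34 ± 0.36 (adjusted p = 0.0218) with the relaxed filter. Markers of several cell types differed at day 2 as well. Of 10 macrophage probes 1 was higher and 6 were lower in E2F3 +/- glands (median log2 -1.69). Their summed ratio was 114.0 to 134.9 in E2F3 +/- glands and 166.4 to 659.8 in WT glands. Of 6 milk secretory probes 5 were higher (median log2 2.82), with sums of 6522 to 9327 in E2F3 +/- glands and 703.3 to 3896 in WT glands. Of 4 fibroblast probes 3 were lower (median log2 -1.80), and of 6 adipocyte probes 2 were lower (-0.74). The part of these markers in the members' differences was not tested.

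All 4 day 2 calls depended on single arrays, and the count ran from 0 (without E2F3 +/- day 2 replicate 3) to 5 with 1 array left out. The share of all probes in those fits was not counted. *Traf4* was lost without WT day 2 replicate 3 (adjusted p = 0.102) or E2F3 +/- day 2 replicate 3 (adjusted p = 0.0837). *Bnip3l* was lost without WT day 2 replicate 2 or 3 (adjusted p = 0.058 and 0.0672) or E2F3 +/- day 2 replicate 3 (adjusted p = 0.0918). *Tnfrsf1b* was lost without WT day 2 replicate 2 (adjusted p = 0.163) or any E2F3 +/- day 2 array (adjusted p = 0.0637, 0.069 and 0.145). *Tnfaip2* was lost without WT day 2 replicate 2 or 3 (adjusted p = 0.175 and 0.0607) or any E2F3 +/- day 2 array (adjusted p = 0.0515, 0.0714 and 0.15). With array weights or with only the groups compared, *Bnip3l*, *Tnfaip2* and *Tnfrsf1b* did not pass (adjusted p from 0.0636 to 0.159). When the 3 arrays that stood apart were left out, the values were log2 1.18 ± 0.21, adjusted p = 0.00145 for *Traf4*, -1.09 ± 0.33, adjusted p = 0.0296 for *Bnip3l*, -1.72 ± 0.50, adjusted p = 0.024 for *Tnfaip2* and -1.86 ± 0.44, adjusted p = 0.00811 for *Tnfrsf1b*, and *Tnfrsf1a* passed too (log2 1.22 ± 0.41, adjusted p = 0.0474).

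At the other times limma called 0 of 16 members between genotypes. All probes gave 0.379% at lactation, 0.659% at day 1, 0% at day 3 and 1.12% at day 4. At an unadjusted p under 0.05 the members gave 4, 0, 1 and 3 of 16. All probes gave 374, 533, 691 and 841 of 5010 at that threshold. The largest differences at lactation were in *Tnfrsf1b* (log2 -1.20 ± 0.54, adjusted p = 0.621) and *Traf4* (log2 1.05 ± 0.43, adjusted p = 0.515), and at day 4 in *Tnfrsf1a* (log2 -2.19 ± 0.70, adjusted p = 0.13) and *Bnip3* (log2 -1.27 ± 0.35, adjusted p = 0.0783). The test of whether the change from lactation differed by genotype called 0 members at each day (0.379%, 0%, 0.24% and 0.319% of all probes at days 1 to 4). At an unadjusted p under 0.05 it gave 1, 3, 1 and 4 of 16 members, and 411, 822, 435 and 547 of 5010 probes. The mean genotype difference over all 5 times called 0 members (0.619% of all probes), with 2 of 16 members and 661 of 5010 probes at an unadjusted p under 0.05. So the day 2 differences are not shown to differ from those at lactation.

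The counts of 0 at days 3 and 4 changed with the 3 arrays that stood apart. *Bak1*, *Tnfrsf1a* and *Traf4* had their highest ratio of the group on E2F3 +/- day 3 replicate 1 (0.663, 2.04 and 1.16) and on E2F3 +/- day 4 replicate 3 (0.855, 1.47 and 1.29). On the other E2F3 +/- arrays of those days *Bak1* ran from 0.109 to 0.222, *Tnfrsf1a* from 0.0831 to 0.908 and *Traf4* from 0.245 to 0.558. The WT day 3 arrays, which these 2 arrays resembled most, had *Bak1* at 0.728 to 0.787, *Tnfrsf1a* at 1.91 to 2.11 and *Traf4* at 0.940 to 1.42. WT day 2 replicate 3, which resembled E2F3 +/- day 4, had *Tnfrsf1a* at 0.171, *Traf4* at 0.313 and no value of *Bak1*. Marker sums on E2F3 +/- day 4 replicates 1, 2 and 3 were 3242, 1440 and 6278 for the milk secretory list and 239.8, 156.2 and 115.2 for the macrophage list. The luminal list summed to 68.2, 100.2 and 92.1, and the skeletal muscle probe *Eno3* was at 27.3, 67.2 and 0.156. Replicate 3 was thus highest in milk secretory markers, lowest in macrophage markers and *Eno3*, and between the others in luminal markers. On E2F3 +/- day 3 replicates 1, 2 and 3 the milk secretory sums were 6114, 7365 and 2329, and the macrophage sums 150.8, 193.3 and 269.1. The luminal sums were 92.4, 118.7 and 94.9, and *Eno3* was at 12.6, 17.9 and 24.0. Replicate 1 of day 3 was thus between the others in milk secretory markers and lowest in macrophage markers, luminal markers and *Eno3*. Their part in the spread of the members was not tested.

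Without the 3 arrays, limma called 3 members between genotypes at day 3 (22.8% of all probes in that fit) and 4 at day 4 (25.2%). In the genotype by time test it called 1 at day 1 (1.2%), 3 at day 3 (13.4%) and 5 at day 4 (15.5%). *Tnfrsf1a* was then lower in E2F3 +/- glands at day 3 (log2 -2.07 ± 0.41, adjusted p = 0.00113) and day 4 (log2 -3.33 ± 0.41, adjusted p = 3.87e-06), *Traf4* at day 3 (log2 -1.17 ± 0.21, adjusted p = 0.000583) and day 4 (log2 -1.50 ± 0.21, adjusted p = 2.2e-05), and *Bak1* at day 3 (log2 -2.06 ± 0.27, adjusted p = 3.07e-05) and day 4 (log2 -2.07 ± 0.34, adjusted p = 0.000153). The day 4 values of *Bak1* rest on 1 E2F3 +/- array (replicate 1, 0.109), which the fit assumes to vary like the others. *Bnip3* was the fourth member at day 4 (log2 -1.13 ± 0.39, adjusted p = 0.0385). The day 4 genotype by time differences were log2 -3.82 for *Tnfrsf1a*, -2.55 for *Traf4* and -1.67 for *Bak1*, and *Birc2* passed there too (log2 -1.10 ± 0.36, adjusted p = 0.0416), as did *Bnip3*. The call at day 1 was that of *Traf4* (log2 -1.19 ± 0.27, adjusted p = 0.0273). At lactation 1 member passed (*Traf4*, log2 1.05 ± 0.19, adjusted p = 0.0044), against 0.918% of all probes. Over all times 3 did, against 21.7% of all probes (*Bak1*, *Tnfrsf1a* and *Tnfrsf1b*, each lower in E2F3 +/- glands). The labels of these arrays were kept as given.

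Other genes of the same pathways were counted from 2 lists. Beside their counts stand the shares of all probes that were higher and lower at days 1 to 4. These were 23.2% and 20.3%, 23.7% and 22.2%, 34.2% and 32.7%, and 33.2% and 37.4% in E2F3 +/- glands. In WT glands they were 18.5% and 18.2%, 31.8% and 33.4%, 17.4% and 21.6%, and 25.4% and 31%. Of 33 genes of other apoptosis machinery, 15 probes were tested, and at days 1 to 4 the number higher and lower than lactation was 3 and 5, 2 and 4, 2 and 9, and 2 and 7 in E2F3 +/- glands and 3 and 7, 3 and 8, 2 and 6, and 2 and 7 in WT glands. The stress gene *Gadd45a* rose at all 4 days of both genotypes (at day 1 by log2 3.47 in E2F3 +/- glands and 2.39 in WT glands). The translation inhibitor *Pdcd4* (log2 -1.80 and -3.24 at day 1), the death-associated *Dap* (-1.76 and -2.48) and the Hsp70 partner *Bag3* (-1.50 and -1.30) fell at all 4. The median of the list at day 4 was log2 -1.05 in E2F3 +/- glands and -0.83 in WT glands. Of 38 genes of NF-kB and TNF receptor signalling, 5 probes were tested. The number higher and lower was 4 and 1, 3 and 1, 3 and 1, and 2 and 1 at days 1 to 4 in E2F3 +/- glands and 3 and 1, 3 and 0, 3 and 0, and 4 and 0 in WT glands. Their median at day 4 was log2 0.45 in E2F3 +/- glands and 0.96 in WT glands. The subunit *Nfkb2* was higher at all 4 days of both genotypes (at day 4 by log2 1.13 in E2F3 +/- glands and 1.16 in WT glands). The inhibitor *Nfkbia* was lower at all 4 days in E2F3 +/- glands and at day 1 in WT glands (log2 -1.99 and -1.97 at day 1). Between genotypes, 2 probes of the first list were higher and 1 lower in E2F3 +/- glands at day 2, and 1 of the second lower (*Tnip1*, an inhibitor of NF-kB signalling, log2 -1.22). Of all probes, 7.17% were higher and 5.57% lower in that comparison.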

How the data were processed

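Gland RNA of 30 samples and a mouse reference RNA were amplified, labelled with Cy5 and Cy3, per the labels' protocols, and hybridised to 70-base oligonucleotide arrays. The authors deposited 1 processed ratio per probe and array. The sources used here do not give the scanner, the background correction or the normalization. Nor do they give the meaning of ratios of 0 (13146 values) and 0.01 (1223 values), which were taken as missing; the lowest other ratio was 0.02. Ratios were put on the log2 scale and centred on each array's median. Probes were named from the platform's table, and all 19 members matched a RefSeq symbol.

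The 5010 probes with a value on at least 2 of 3 arrays in every group were fitted with limma 3.58.1 (R 4.3.3), with 1 mean per group, all 10 groups sharing 1 estimate of the spread, and Benjamini-Hochberg adjustment over all 5010 probes at 0.05. Errors in the text are standard errors. The number of arrays, 3 per group, limits the precision. No pair of arrays held identical values, and the highest correlation between any 2 was 0.970. The fit was tested on simulated data. Tables and figures were made in Python 3.11.15.

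The members and the pathway and marker lists were chosen with earlier results of these data known. By the rule for named genes, members with the smallest adjusted p of the test over days in each role (up to 6 per role) and any past the threshold between genotypes have their values in every array, which took in the tested members; the others are given too. Alternatives were the ratios without centring, quantile normalization, array weights, a replicate block, stricter and looser probe filters, 0 and 0.01 kept at 0.02, only the groups compared, and arrays left out singly or together. Centring with missing values ranked lowest and leaving out the 3 arrays that stood apart were chosen after seeing the data.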

Additional observations from a re-analysis of the deposited data

How the results depend on the processing

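Of the 50 calls described (46 against lactation and 4 between genotypes), 24 passed without any single array and 19 under every alternative run. Calls lost were 5 as deposited, 5 with quantile normalization, 5 with array weights, 1 with no filter, 9 with only the groups compared, 5 with missing values ranked lowest in the centring, 2 without WT day 2 replicate 3 and E2F3 +/- day 4 replicate 3, 2 without the 3 arrays that stood apart, and 0 of 36 among probes on all 30 arrays. With 0 and 0.01 kept at 0.02, 19 were lost and 2 changed sign (*Tnfrsf1b* at WT day 1, log2 0.36, and *Diablo* at E2F3 +/- day 3, log2 1.11), in groups with such a value. The replicate block lost 3 (*Tnfaip8* and *Traf7* at WT day 1, *Traf7* at WT day 4), adjusted p = 0.0561, 0.0519 and 0.0548, and gave 4 members at WT day 1. The numbers did not pair the arrays (median correlation 0.009 over 135 same-numbered pairs, -0.007 over 270 others), and 8 of 30 arrays matched best an array of their own number.

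Members called against lactation at days 1 to 4 changed as follows. With probes on all 30 arrays the counts are out of 10 members, not 16. They are lower for that reason, since no call on those probes was lost. In E2F3 +/- glands (4, 4, 9 and 11) array weights gave 9 at day 1 and 10 at day 2 (70.8% and 74.5% of all probes), only the groups compared also 9 and 10 (62.1% and 66.6%), and probes on all 30 arrays 7 at day 4; the test over days (9) gave 15 with array weights (97.8%). In WT glands (5, 6, 2 and 5) day 1 gave 3 as deposited, 9 with weights (61.3%) and 3 with probes on all arrays. WT day 3 gave 4 as deposited, 5 with quantile normalization, 11 with weights (71.5%), 11 with only the groups compared (64.1%) and 1 with probes on all arrays. WT day 4 gave 8 with weights (79%). Without the 2 arrays, E2F3 +/- day 1 gave 8 (55.8%), WT day 1 8 (45.8%) and WT day 3 6 (49.4%). Without the 3, E2F3 +/- day 1 gave 8 (59.7%), WT day 1 8 (49.2%), WT day 3 7 (53.4%) and WT day 4 8 (68.2%).

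Between genotypes, day 2 (4) gave 1 with weights (3.95% of all probes), 1 with only the groups compared (6.03%) and 2 with 0 and 0.01 kept at 0.02 (4.64%). The counts of 0 became, with weights, 3 at lactation (6.49%), 4 at day 3 (35.1%), 8 at day 4 (39.9%) and 3 over all times (14.9%), and for genotype by time 1, 5 and 8 at days 1, 3 and 4 (4.41%, 25% and 31.8%). Only the groups compared gave 1 for genotype by time at day 1 (1.84%). Without the 2 arrays they were 1 at day 3 (1.7%), 4 at day 4 (21.1%), 2 over all times (12.3%), and 1 and 3 for genotype by time at days 3 and 4 (0.459% and 10.5%). Without the 3 they were 1 at lactation, 3 at day 3, 4 at day 4, 3 over all times, and 1, 3 and 5 for genotype by time at days 1, 3 and 4, with the shares of all probes given above. The cause was not tested.

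With 1 array left out, counts ran from 4 to 4, 2 to 4, 4 to 9 and 7 to 11 at days 1 to 4 in E2F3 +/- glands, and from 1 to 3, 5 to 7, 1 to 2 and 3 to 5 in WT glands. Between genotypes they ran from 0 to 5 at day 2, 0 to 1 at day 3 (1 without E2F3 +/- day 3 replicate 1), 0 to 3 at day 4 (3 without E2F3 +/- day 4 replicate 3) and 0 to 1 over all times, with 0 at lactation and day 1, and 0 to 2 for genotype by time at day 4. The tests over days ran from 9 to 12 in E2F3 +/- glands and 9 to 13 in WT glands. The share of all probes was not counted with 1 array left out. These ranges therefore do not tell a change in the members from a change in all probes. Without centring, the median of all probes at days 1 to 4 was log2 0.22, 0.19, 0.25 and 0.23 in E2F3 +/- glands and 0.05, 0.29, 0.21 and 0.21 in WT glands, against 0.12, 0.14, 0.12 and -0.01 in E2F3 +/- glands and -0.07, 0.11, 0.08 and 0.06 in WT glands with it. With 3 arrays per group, differences well above the SE of a gene could also fail to pass. In simulated data for WT day 4 against lactation, 10% of 1.5-fold, 46% of 2-fold and 88% of 4-fold changes were recovered, with 11 false calls. There 50 of 5010 probes were changed at each fold. In the data 56.4% of probes passed in that comparison, so the recovery need not be the same, there or in other comparisons. A count of 0 therefore does not show that no member differed.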

Other observations

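Further genes of the 2 pathway lists are given here as values of the limma fit, and were picked after their values were seen. *Tnip1*, an inhibitor of NF-kB signalling, rose at every day in E2F3 +/- glands, by log2 1.33, 1.51, 2.33 and 2.47 (SE 0.30 each) at days 1 to 4, and in WT glands at days 2 and 4 by log2 1.91 and 1.45 (SE 0.34 each). The NF-kB subunit *Rela* rose in E2F3 +/- glands at days 1 to 3 by log2 0.78, 0.54 and 0.66, with 0.16 (adjusted p = 0.476) at day 4, and in WT glands at all 4 days by log2 1.49, 0.70, 0.81 and 0.93 (SE 0.21 each). *Cidea*, a lipid droplet protein named for its likeness to DNA fragmentation factors, was lower in E2F3 +/- glands at days 1, 3 and 4 (log2 -2.16, -3.21 and -4.78), with -1.45 (adjusted p = 0.126) at day 2. In WT glands *Cidea* was lower at days 1 to 4 (log2 -2.68, -4.08, -4.79 and -3.72, SE 0.78 each).

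The survival gene *Mcl1* had 2 probes, which disagreed. At day 4 of E2F3 +/- glands they gave log2 0.43 (adjusted p = 0.119) and -1.43 (adjusted p = 0.00175), and at day 2 of WT glands log2 1.31 (adjusted p = 0.000144) and -0.86 (adjusted p = 0.0424). No direction of *Mcl1* is therefore given.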
